A study of Gasterosteus aculeatus with 18 samples.

Results

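Expression of 150 genes was examined that stood apart, in 1 direction, in all 3 egg pools carrying the same replicate number. They were taken from 16103 genes of adequate level, out of 17253 in the deposited table. The material was embryos of the threespine stickleback (Gasterosteus aculeatus), a small teleost fish, of wild type genotype. Each of 18 RNA libraries came from a pool of 10 eggs of a clutch collected at 72 hours after fertilization. Control pools received 0 µg/L and low and high pools 5 and 10 µg/L of the agent given as maternally derived cortisol, levels described by the study as baseline, induced by predators and beyond the physiological. The labels say low and high, and the concentrations come from the series' design text. Each group had 6 pools, numbered 1 to 6. The labels do not state whether pools that share a number came from 1 clutch or whether the numbers have another meaning, so "number" is used here in the sense of the label only.

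Cortisol is the main glucocorticoid of fish. It passes from the mother into the egg and acts through receptors that regulate transcription. The RNA of an early fish embryo is in part laid down by the mother and in part transcribed from the embryo's own genome. Eggs of 1 clutch share a mother. In RNA of whole pooled eggs, fewer cells of a type and less RNA per cell cannot be told apart.

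The members were chosen by a gap on the scale of log2(normalised read count + 1). For a gene and a number, the gap is the distance between the 3 pools of that number and the nearest of the other 15 pools, measured when the 3 all lie above or all lie below the 15. The 150 genes with the largest gaps are the members. The choice used all 18 values of every gene, so differences between numbers are given as a description and were not tested. Members 148, 149 and 150 had gaps of 0.78, 0.78 and 0.78, and the next 3 genes outside the list also had gaps of 0.78, so no step in the values marks the edge. The deposited identifiers are not paired with gene names and 0 of 17253 occur in the reference gene table. The functions of the genes, and the tissue label, therefore could not be checked against known markers, and genes are given by identifier.

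Deposited column totals ran from 8.36 to 15.2 M. They followed the numbers, at 8.36 to 8.72 M in number 1, 8.68 to 9.14 M in number 6, 10.4 to 11.8 M in number 2 and 11.4 to 15.2 M in numbers 3, 4 and 5. Genes with a count no higher than 5 numbered 358 to 802 in all pools but high pool 3, which had 1220.

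The 150 members were unevenly shared among the numbers. Number 2 held 78 (31 higher and 47 lower than the other 15 pools), number 3 held 27 (8 higher, 19 lower), number 1 held 26 (all lower), number 5 held 11 (all higher) and number 4 held 8 (6 higher, 2 lower). Number 6 held 0. These counts depended on which numbers were compared and on the ranking. With number 6 left out, number 1 held 56 higher and 36 lower of the 150 genes then chosen, and with number 1 left out, number 6 held 39 higher and 21 lower. With a minimum mean of 50, number 1 led with 6 higher and 53 lower, against 19 and 35 in number 2. Ranked by the difference over the within-number SD, number 1 held 40 higher and 53 lower, against 6 and 19 in number 2. Some gap above 0 was common, since 6055 of 16103 genes (37.6%) had one, with a median of 0.14. Number 1 accounted for 44.7% of these genes but for 17.3% of the members, while number 2 accounted for 15.8% of them and 52.0% of the members. As shares of all 16103 genes, those with any gap made up 8.66% higher and 8.15% lower in number 1, 3.38% and 2.56% in number 2, and 2.93% and 2.25% in number 3. The shares were 0.795% and 0.323% in number 4, 2.6% and 1.84% in number 5, and 2.04% and 2.07% in number 6. The choice of members used these same gaps, so nothing is read from the members' counts against these shares.

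**Figure D1:**
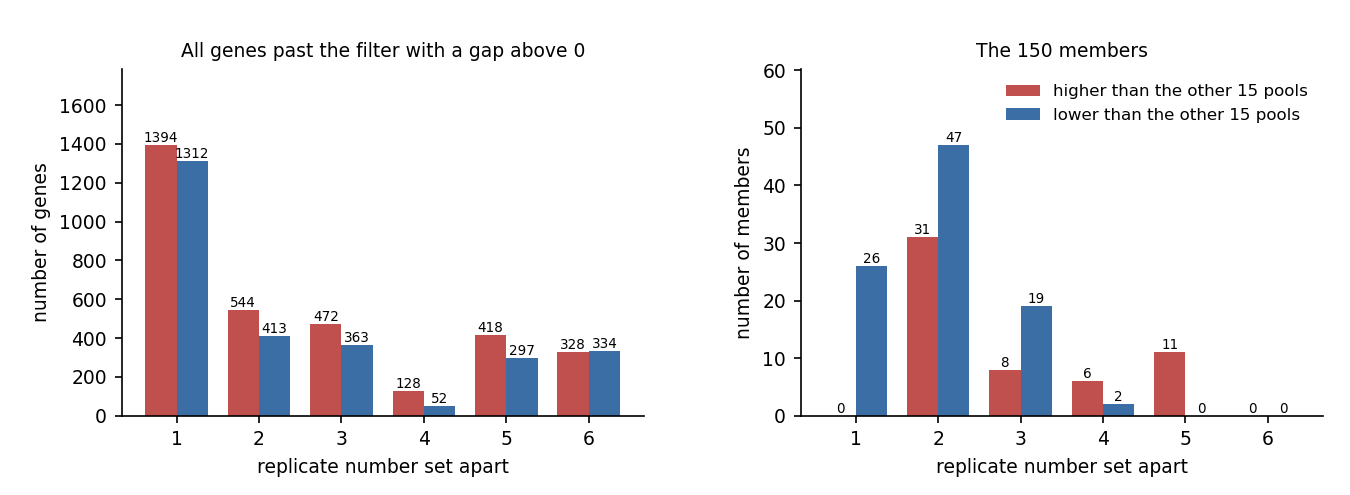
Genes with a gap above 0 (left) and the 150 members (right) by the replicate number set apart, in counts of genes, with bars for genes higher and lower than the other 15 pools. Number 1 had the most genes with a gap (1394 higher and 1312 lower), and number 2 the most members (31 higher and 47 lower), an order that turned with a minimum mean of 50 or with ranking by the difference over the within-number SD.

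Across members the median gap was 1.01 on the log2 scale and the largest 5.43. It exceeded 1 in 76 members, 2 in 14 and 3 in 8. Of the 14 members with a gap over 2, 11 were set apart at a lower value. The mean of the set-apart number differed from the mean of the other pools by a median of 2.40 on the log2 scale, a 5.28-fold difference. Members had a lower level than genes at large, with a median normalised read count over the 18 pools of 83.1 against 176.7. In 58 members (38.7%) the mean was under 50, as it was in 20.8% of all genes. The replicate number accounted for a median of 92.7% of a member's variance and the dose group for 1.16%, against 80.1% and 4.21% over all genes, a difference that the choice itself brings about.

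**Figure D2:**
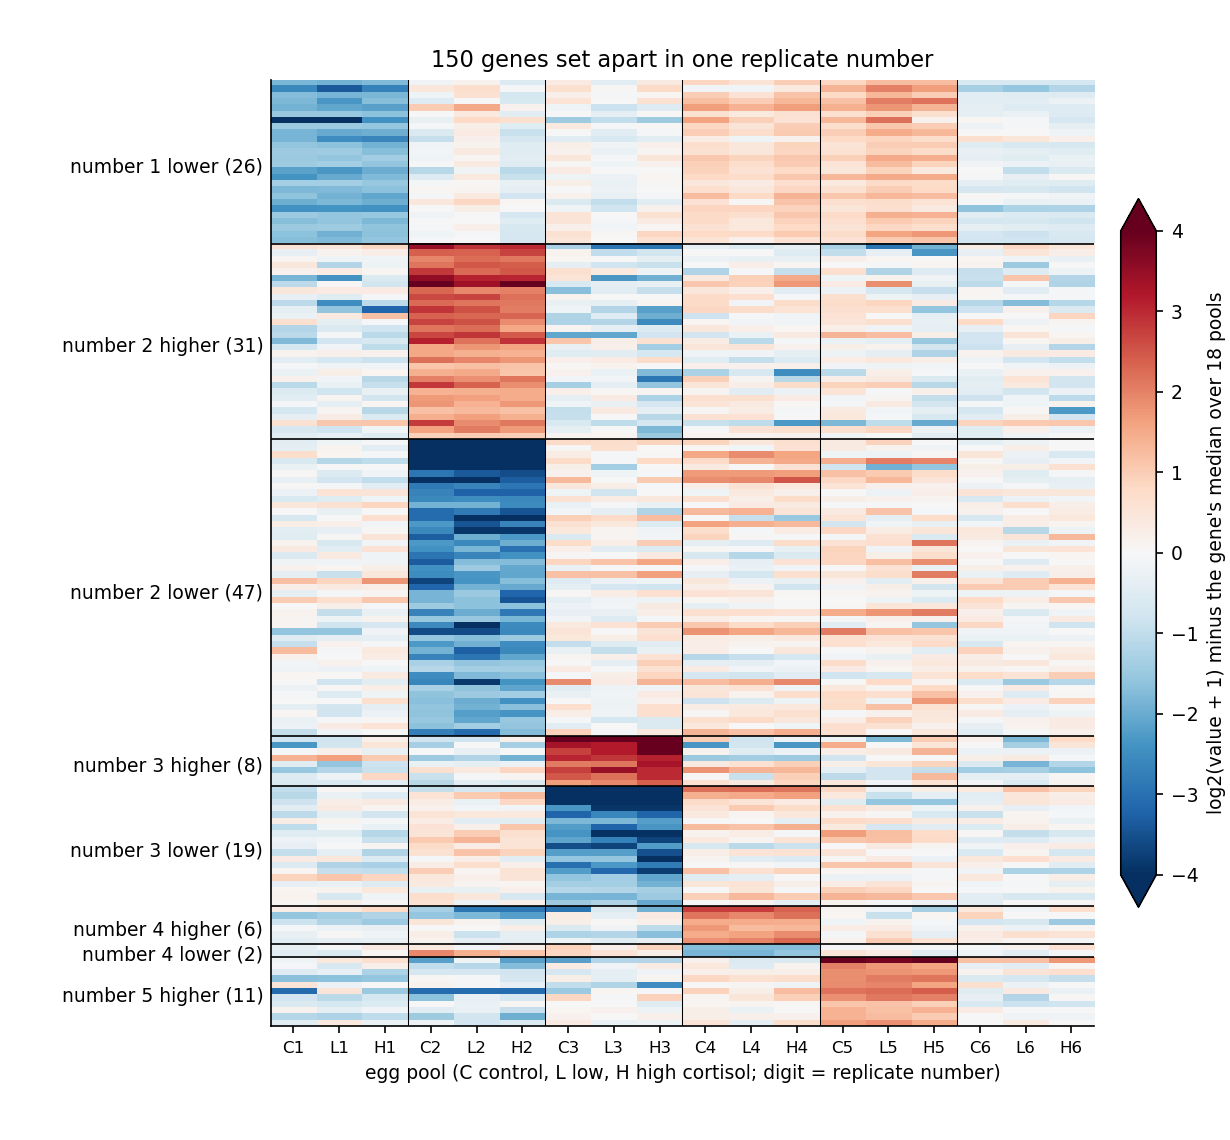
The 150 members (rows, grouped by the number and direction in which they stand apart) in 18 pools (columns, grouped by replicate number), as log2(value + 1) minus each gene's median. The 3 pools of the set-apart number share 1 colour in every block, and in the block of number 1 the other pools also grade from number 6 to number 5.

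Several of the largest gaps belonged to genes nearly silent in number 2, including the first and the third in rank, with a gene of number 3 between them. ENSGACG00000013996 had normalised read counts of 2, 3 and 1 in control, low and high pool 2. In the other 15 pools it had 172 to 443, with a median of 305, and its gap was 5.43. ENSGACG00000002232 had 1, 0 and 0 in control, low and high pool 2, against 46 to 97 elsewhere (median 64), a gap of 4.55. In both genes the 15 other pools stayed within a narrow band, a range of 1.36 and 1.06 on the log2 scale, which is smaller than the gap.

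Complete or near loss of signal in 1 number was a recurring pattern. In 20 members all 3 pools of the set-apart number were at 5 or less while all other 15 pools were above 5. Of these, 10 belonged to number 2, 9 to number 3 and 1 to number 4. Elsewhere their median counts ran from 11 to 305 in the genes of number 2 and from 14 to 122 in those of number 3. Over all 16103 genes this pattern occurred in 13 genes for number 2, 12 for number 3, 2 for number 1, 1 each for numbers 4 and 5, and 0 for number 6. The list therefore holds most but not all of such genes. A value of 5 or less does not show that a transcript is absent, since the values are rounded and scaled.

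Of the 47 members lower in number 2, 13 had all 3 pools of that number at 5 or less. Over all 47, the median count was 15 in pools 2 and 90 in the other pools. The gap exceeded the whole range of the other 15 pools in 14 of the 47. It did so in 5 of the 19 members lower in number 3 and in 1 of the 2 lower in number 4. Members were ranked on this same gap and the share over all genes was not taken, so these counts only describe the list. The number nearest to number 2 varied from gene to gene, being number 1 in 16 members, 3 in 13, 4 in 8, 6 in 6 and 5 in 4. No 1 number was nearest in most of these genes.

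Genes higher in number 2 included several of low level elsewhere. ENSGACG00000010304 had 82, 53 and 57 in control, low and high pool 2 and 0 to 12 in the other 15 pools, with a median of 5. ENSGACG00000020031 had 51, 50 and 64 in the same 3 pools and 1 to 13 elsewhere, with a median of 7. Both passed the minimum mean of 11.4 only through number 2, as their means elsewhere were 5 to 8.6 in each dose group. In neither gene did the pools of number 2 overlap the other 15, as the choice requires. The 3 pools of number 2 spanned 0.62 and 0.35 on the log2 scale, against a median of 0.53 and 0.81 within the other numbers. Over all 31 members of this kind the median count was 121 in number 2 and 26 in the other pools, with a median fold difference of 5.06. Some of the other members also passed the minimum mean only through number 2. Low values elsewhere, and with them the fold difference, are therefore in part built in by the choice. Number 4 was the next highest in 14 of the 31.

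**Figure D3:**
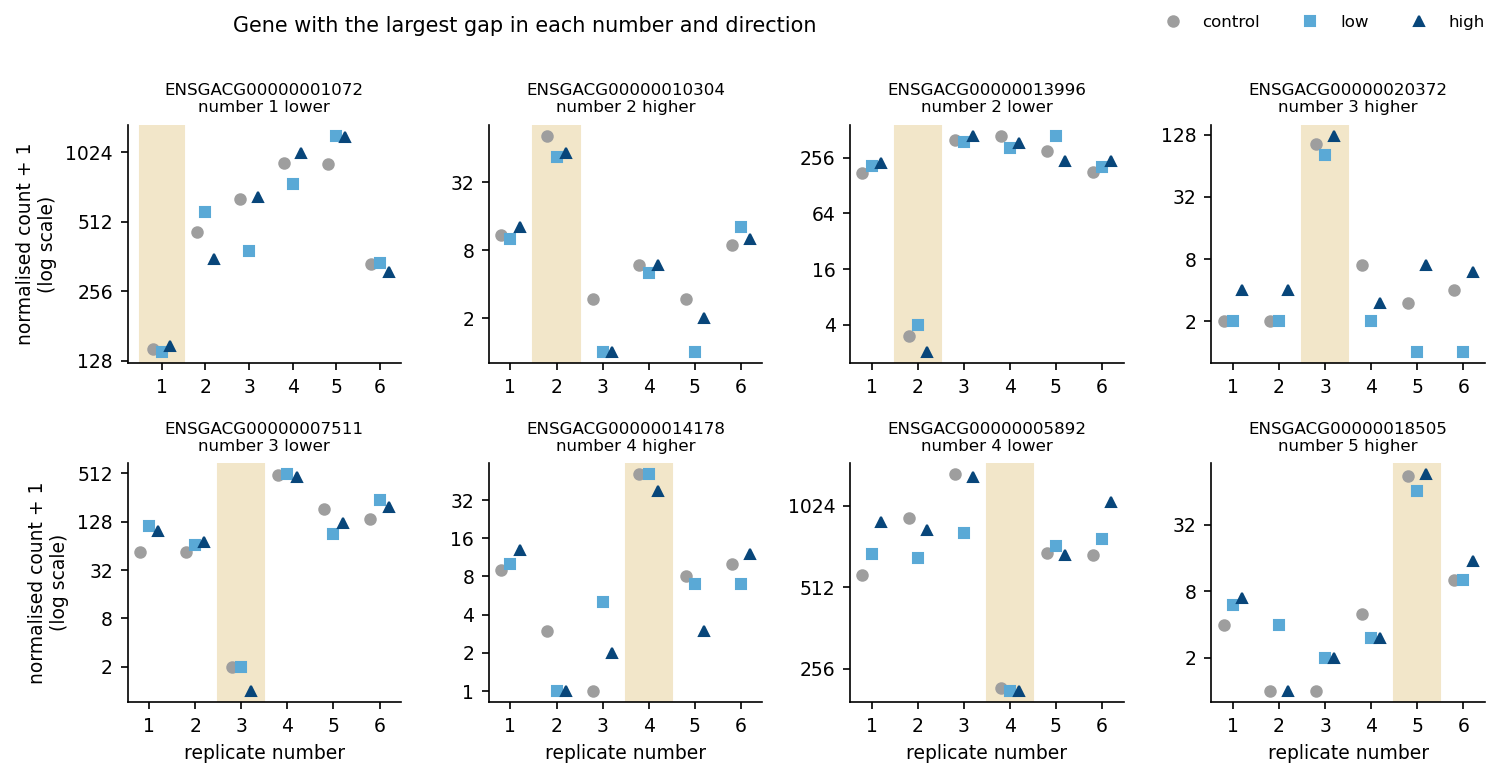
Normalised read count + 1 (log axis) in the 18 pools by replicate number for the gene with the largest gap in each number and direction, with the set-apart number shaded and marker shapes for control, low and high pools. ENSGACG00000013996 lay between 1 and 3 in number 2 and between 172 and 443 elsewhere, and ENSGACG00000020372 lay between 80 and 124 in number 3 and between 0 and 6 elsewhere.

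Number 3 contributed both the highest fold difference of any block and several nearly silent genes. ENSGACG00000020372 had 102, 80 and 124 in control, low and high pool 3 and 0 to 6 in the other 15, with a median of 2 and a gap of 3.53. ENSGACG00000001347 had 49, 44 and 92 in pools 3 and 0 to 13 elsewhere, with a median of 2. For the 8 members higher in number 3 the median fold difference was 10.01. The 2 named genes passed the minimum mean of 11.4 only through number 3, as their means elsewhere were 0.6 to 3.8 in each dose group. Their low values elsewhere are therefore in part built in by the choice, and fold differences were not tested between blocks. In these 8 genes the pools of number 3 did not overlap the other 15, as the choice requires. In both named genes the high pool was the highest of the 3 in number 3.

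Among the 19 members lower in number 3, ENSGACG00000007511 had 1, 1 and 0 in control, low and high pool 3. Elsewhere it had 52 to 494 with a median of 122, and its gap was 4.73. ENSGACG00000001182 had 6, 1 and 0 in pools 3 and 88 to 595 elsewhere, with a median of 259. Both genes were highest in number 4, so the other numbers also differed among themselves, by 3.22 and 2.74 on the log2 scale. Over the 19 members the median count was 5 in number 3 and 100 elsewhere. All pools 3 had more genes at low counts over the whole table than the other pools of their dose group. Counts no higher than 5 were found for 738 genes in control pool 3, 597 in low pool 3 and 1220 in high pool 3, and the part of this in the members of number 3 was not tested. Without high pool 3, a choice of 150 genes from the other 17 pools held 139 of the same genes, and 20 genes were lower and 9 higher in number 3. Leaving a pool out cannot narrow a gap, and control and low pool 3 stayed in. These counts therefore do not show what part the low counts of pools 3 had.

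The 26 members of number 1 differed in level from those of numbers 2 and 3. Most were abundant, with a median of mean counts of 1092 and a median above 100 in the other pools for 23 of 26. ENSGACG00000020952 was an exception, with 0 to 2 in pools 1 and a median of 17 elsewhere. The highest gap of the block was 1.06 over all 18 pools, and without number 6 the gap of ENSGACG00000012351 was 2.47. ENSGACG00000001072 had 143, 138 and 148 in control, low and high pool 1 and 310 to 1209 elsewhere, with a median of 643. ENSGACG00000012351 had 52, 30 and 48 in pools 1 and 109 to 1282 elsewhere, with a median of 416. In both genes number 6 was next lowest and number 5 highest, so that number 1 lay at the end of a series of levels. This held for most members of the block, as number 6 was next lowest in 17 of 26 and number 5 was highest in 23 of 26. Relative to each gene's mean, the median log2 level was -1.72 in number 1, -0.36 in number 6, -0.059 in number 2, 0.14 in number 3, 0.85 in number 4 and 1.08 in number 5. The column totals were likewise lowest in numbers 1 and 6 and highest in number 5. When all columns were scaled to the same total, 5 genes were lower in number 1 among the 150 chosen, in place of 26. The counts in numbers 2 and 3 were then 84 and 34, against 78 and 27. After quantile normalization, by contrast, 28 of the 150 genes chosen were lower and 2 higher in number 1. Whether the column totals bear on the block of number 1 was not tested.

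**Figure D4:**
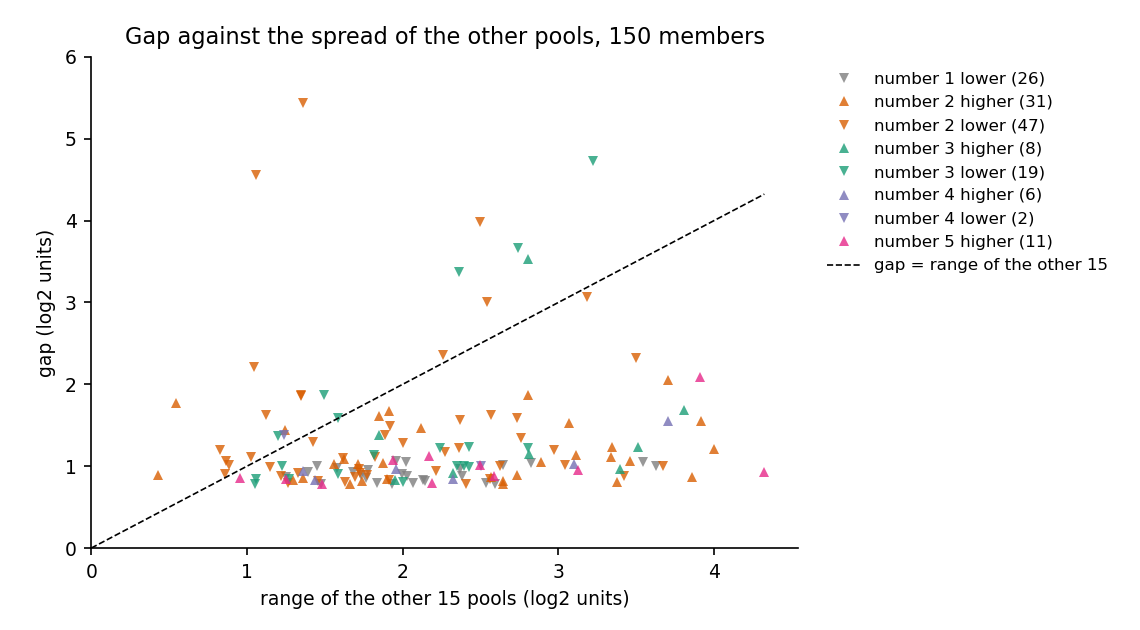
Gap against the range of the other 15 pools, both in log2 units, for the 150 members, with triangles up for members higher and down for members lower in the set-apart number. Above the dashed line the gap exceeds the range of the other pools, as in 24 members. Among these were 17 of the 78 members of number 2 and 6 of the 27 of number 3. The members of number 1 all lie below the line. Members were ranked on the plotted gap, and the share over all genes was not taken.

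Numbers 4 and 5 held few members. ENSGACG00000014178 had 50, 50 and 37 in control, low and high pool 4 and 0 to 12 elsewhere, with a median of 6. ENSGACG00000012348 had 242, 209 and 256 in pools 4 and 11 to 102 elsewhere, with a median of 42. The 2 members lower in number 4 were ENSGACG00000005892, with 217, 211 and 212 against 566 to 1337 elsewhere, and ENSGACG00000013545, with 4, 4 and 5 against 11 to 67. The first of them had the closest agreement of the 3 pools of a number among the genes named here, a range of 0.040 on the log2 scale. In number 5, ENSGACG00000018505 had 87, 63 and 90 against 0 to 14 elsewhere, and ENSGACG00000001032 had 79, 66 and 58 against 5 to 26. The 11 members of number 5 had a median count of 102 in that number and 27 in the other pools. Each of these 6 genes was free of overlap between its number and the other 15 pools, as the choice requires. ENSGACG00000014178 and ENSGACG00000018505 passed the minimum mean only through their own number, with means of 3.2 to 5.2 elsewhere in each dose group. Low values elsewhere are in part built in by the choice here as well.

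Whether a number stands apart again in pools left out of the gap was examined. The gap was taken in 2 of the 3 dose groups to choose 150 genes, and the third was read. The minimum mean was still taken over all 18 pools, so the third group also had a part in the choice. ENSGACG00000001347 had means of 11.2 in control and 9.5 in low pools, under the minimum of 11.4. It passed only with its high pools, at a mean of 18.5. How many chosen genes did so was not counted, and the shares that follow may be raised by it. With the choice made in control and low pools, the high pool of the same number was the most extreme of the 6 high pools, in the same direction, for 136 of 150 genes (90.7%). For all 16103 genes, with the number of largest gap taken in the same way, this was so for 68.4%, and for those of them with a gap above 0 in the control and low pools for 77.9%. The median gap of the chosen genes was 1.32 in the control and low pools and 1.32 in the held-out high pools. There 1 pool is set against 5 and a gap is easier to reach. With control pools held out the count was 138 of 150 (92.0%, against 66.3% of all genes and 76.9% of those with a gap), and with low pools held out 138 of 150 (92.0%, against 66.2% and 76.9%). The median gap in the held-out pools was 1.31 for control and 1.26 for low, against 0.14 over all genes in both. When control and low pools were used, the genes that did not repeat lay mostly in number 3, where 32 of 42 repeated in the high pool, against 65 of 66 in number 2 and 24 of 24 in number 1. Genes vary together and are not replicates, so these shares carry no test.

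The effect of cortisol on the members was read from a fit of all 16103 genes in limma, which the choice of members did not use as a contrast. Within the set-apart number the 3 pools of a member spanned a median of 0.48 on the log2 scale, against 0.35 within a number over all genes, which have a higher level. The choice favours genes whose 3 pools of the set-apart number lie close together. Members set apart higher spanned 0.38 there against 0.67 within their other numbers, and those set apart lower 0.65 against 0.51. Without a replicate block limma called 0 of 150 members and 0 of 16103 genes (0%) in each of the 3 comparisons, and 0 members reached an unadjusted p under 0.05. Over all genes that share was 0.484% in low against control, 0.981% in high against control and 2.39% in high against low. The median standard error of a member's log2 fold change was 0.61 in that fit, against 0.26 for all genes, because the difference between numbers enters it. With the replicate number as a block the standard error was 0.18 for members and 0.11 for all genes. The p-values measure only the spread between these pools, which may be technical.

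In low against control pools the blocked fit called 0 of 150 members and 0 of 16103 genes (0%), with 14 members (9.33%) at an unadjusted p under 0.05 against 11.1% of all genes. With sample weights added to the blocked fit, 15 members and 1067 of 16103 genes were called. The member with the smallest p was ENSGACG00000005701, a gene lower in number 3. It had 2223, 4189, 446, 4773, 2252 and 1905 in control pools 1 to 6. The low pools had 1130, 2312, 240, 3240, 2279 and 889, so low was below control in 5 of 6 pairs and slightly above it in number 5. Its log2 fold change was -0.73 ± 0.15 (SE), and limma gave adjusted p = 0.0960 with the block and 0.99995 without it. In the opposite direction ENSGACG00000016168, an abundant gene higher in number 2, had a mean of 8874 ± 4906 (SD, n = 6) in low and 7712 ± 6066 in control pools, was higher in 5 of 6 pairs, and had an adjusted p of 0.346 in the blocked limma fit.

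In high against control pools the blocked fit called 7 of 150 members (4.67%), 4 higher and 3 lower, against 1.17% of all genes (0.727% higher and 0.441% lower). At an unadjusted p under 0.05 the shares were near each other, 17.3% of members and 16.4% of all genes. ENSGACG00000010798, lower in number 2, had 120, 27, 359, 127, 223 and 131 in control pools 1 to 6. The high pools had 218, 37, 501, 248, 680 and 193, above control in 6 of 6 pairs. Its log2 fold change was 0.82 ± 0.14 (SE), with an adjusted p of 0.0150 in the blocked limma fit and 1 without the block. ENSGACG00000005701 fell by 0.76 ± 0.15 on the log2 scale from control to high pools, and was lower in 6 of 6 pairs (limma with block, adjusted p = 0.0217). Its high pools had 1077, 3070, 153, 3940, 2027 and 897. The count of 7 changed with the fit and with single pools. Blocked fits gave 0 without the variance trend (19 of 16103 genes), 3 with equal column totals (78 genes) and 12 with sample weights (602 genes). Over the blocked alternatives the adjusted p rose to 0.0633 for ENSGACG00000010798 and to 0.0839 for ENSGACG00000005701. The count was 4, 2, 1, 3 and 2 members without control pools 1 to 5 in turn. Over all genes, where the full fit called 188, it was then 188, 54, 24, 68 and 77. Leaving out high pools 1, 3, 5 and 6 gave 4, 2, 0 and 2 members, with 86, 64, 23 and 54 of all genes. Leaving out low pool 1 or low pool 6 gave 4 members, with 134 and 127 of all genes. Without all pools of numbers 1 to 6 in turn it was 2, 3, 1, 3, 1 and 2 members. Over all genes it was then 84, 134, 18, 94, 52 and 45. Without the block the count of members was 0.

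High against low pools gave the most calls, 13 of 150 members (8.67%) in the blocked fit, 7 higher and 6 lower in high pools, against 8.07% of all genes (4.35% higher and 3.73% lower). The share of members called was close to that of all genes, and 19.3% of members against 23.8% of all genes had an unadjusted p under 0.05. With sample weights 27 members and 2491 genes were called. ENSGACG00000010798 was again higher, with low pools at 86, 31, 358, 98, 257 and 111 and a log2 fold change of 0.93 ± 0.14 (SE), above low in 6 of 6 pairs (limma with block, adjusted p = 0.000983). ENSGACG00000016168 was lower in high pools in 6 of 6 pairs. It had 6378, 18516, 7445, 9218, 6408 and 5279 in low pools 1 to 6 and 3550, 16538, 2466, 7439, 3024 and 2838 in the high pools, a log2 fold change of -0.81 ± 0.14 (limma with block, adjusted p = 0.00138). In both genes the difference was smallest in number 2, the number that stands apart, at 0.25 for the first and -0.16 for the second on the log2 scale. When low pool 1, 3 or 6 was left out, 7, 7 and 6 members were called in place of 13. Over all 16103 genes the calls then fell from 1300 to 656, 692 and 633. Leaving out high pool 3 or 5 gave 7 and 6 members, with 645 and 655 of all genes. Leaving out all pools of number 1, 3 or 6 gave 8, 6 and 7 members, with 668, 505 and 646 of all genes. Without the block the count of members was 0.

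The sign of the difference between high and low pools was unevenly split by the number in which a member stood apart. Among the 31 members higher in number 2, the mean difference was below 0 in 24, with a median of -0.25, and 5 were called, all lower in high pools. Among the 47 members lower in number 2, it was above 0 in 33, with a median of 0.15, and 5 were called, all higher. In number 3 the signs were exchanged. Of its 8 higher members 6 lay above 0 (median 0.36, 2 called higher), and of its 19 lower members 15 lay below 0 (median -0.17, 1 called lower). Over all 16103 genes 48.6% were above 0, with a median of -0.0066. Members of number 1 stood near that median, with 10 of 26 above 0 and 0 called in the blocked limma fit, and of the 11 members of number 5, 2 lay above 0 and 0 were called.

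**Figure D5:**
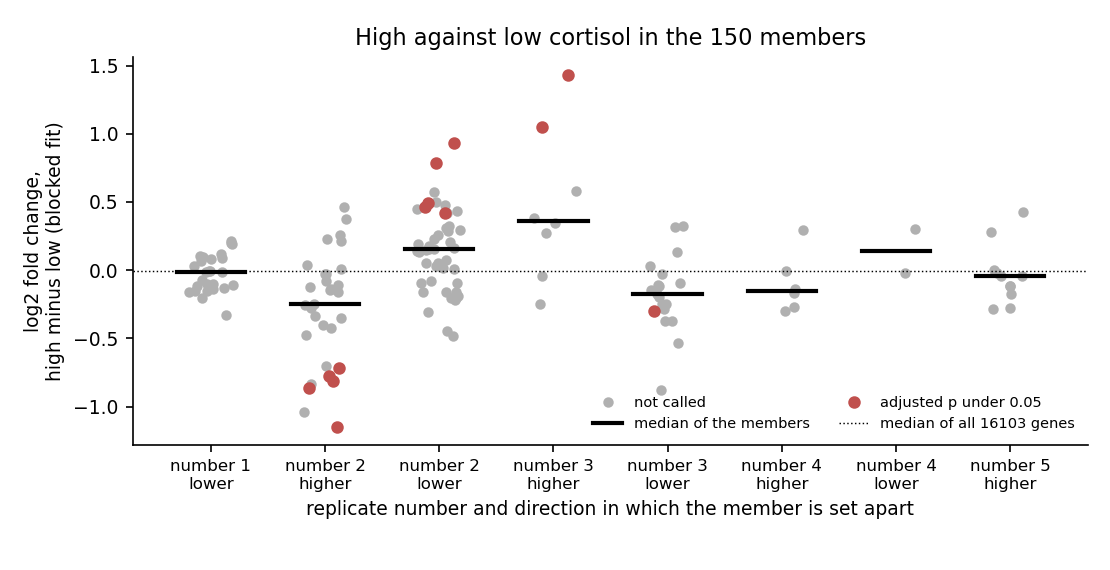
Blocked log2 fold change of high against low pools for the 150 members, by the number and direction in which each stands apart, with bars for block medians, a dotted line for the median of all genes and filled red points for adjusted p under 0.05 in limma. The 5 called members higher in number 2 all lie below 0 and the 5 called members lower in number 2 all lie above it.

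The split was also present without the set-apart number. With that number left out of the mean difference, 7 of the 31 members higher in number 2 and 32 of the 47 lower in number 2 were above 0, as were 7 of the 8 higher and 6 of the 19 lower in number 3. Genes that have some gap in number 2 or 3 but are not members were split in the same way. Of 513 such genes higher in number 2, 13.1% were above 0 in high against low, and of 366 lower in number 2, 85.2% were. For number 3 the shares were 82.8% of 464 higher genes and 14.5% of 344 lower genes. Such a split was not confined to numbers 2 and 3. In number 6, 30.5% of 328 higher and 77.8% of 334 lower genes were above 0, and in number 5 33.3% of 297 lower genes. In number 1 the shares were closer in high against low, 57.8% of 1394 higher and 52.2% of 1286 lower genes, but not in the other comparisons. In low against control the higher and lower genes were at 85.1% and 7.78% in number 6 and 24.6% and 80.5% in number 5. They were at 66.7% and 38.3% in number 2 and 27.6% and 72.4% in number 3. Of the members, 13 of 31 higher and 17 of 47 lower in number 2 were above 0 in low against control. In number 3 it was 4 of 8 higher and 7 of 19 lower members, and over all genes 50.6%. Members higher in number 2 and lower in number 3 thus did not share the split of the wider set. Number 1 had 65.5% and 32.4% in low against control, and 68.2% and 38.6% in high against control. In high against low the members and the wider set differed in sign in number 5. There 2 of 11 members higher in number 5 were above 0, but 68.3% of 407 other genes. In number 4 the values were 1 of 6 members and 41.0% of 122 other genes. These are counts over genes that vary together, and the difference between the sets was not tested. High against control shares its high pools with high against low. In high against control 28 of the 31 members higher in number 2 lay below 0 and 27 of the 47 lower in number 2 above 0. Over all 16103 genes 48.0% were above 0 in that comparison. Among the genes of number 2 that are not members, 13.6% of 513 higher and 77.9% of 366 lower genes were. The members lower in number 2 were thus nearer to the share of all genes than the wider set was.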

How the data were processed

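RNA-seq values of 18 stickleback egg pools (3 groups of 6, grouped by sample title) were read from 1 deposited table of 17253 genes. Its values are treated as scores: the deposited file is named as normalized counts, and the authors' values are whole numbers that had been scaled per library, so no count model was fitted. The submitters' processing notes name edgeR, HTSeq, Cuffdiff, Cufflinks 2.2.0, TopHat2 2.0.8 and TopHat, FastQC and Bowtie2 2.1.0, with no role for any. Scaling factors, read depth, genome build and strand setting were not given in the sources used here, so reads shared between similar or overlapping genes cannot be judged.

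Genes with a mean of at least 11.4 (1 CPM of the mean column total) were kept, 16103 in all. Values were transformed to log2(value + 1), which understates changes of low genes. The gap is defined in the text. The members and gene lists were chosen with earlier results of these data known. The lists, which need gene symbols, could not be applied.

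Dose was tested by a trended limma fit (R 4.3.3, limma 3.58.1) over all 18 pools, with Benjamini-Hochberg adjustment over all 16103 genes at 0.05, without a replicate block and, as the alternative, with it. As deviations from their group's mean, libraries sharing a number correlated at 0.67 to 0.90, above the threshold of 0.1, and 18 of 18 libraries correlated best with 1 of their own number. Libraries of different numbers reached 0.76. The numbers were taken to pair the pools on this evidence from the data. No library depth or floor could be given, as the deposited values are scaled. On simulated data for high against control with 16103 genes and 200 changed by 1 on the log2 scale, the blocked fit recovered 88.5%, and the unblocked fit 39.5%. For changes of 0.5 the shares were 52.0% and 0%. The blocked fit made 7 false calls at either size and the unblocked fit 0. The simulation kept the number differences and drew independent noise with the residual spread of a blocked fit, so it favours the blocked fit. Python 3.11.15 with pandas 2.3.3 and matplotlib 3.10.9 was used for gaps and plots.

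Named are the 2 members of largest gap for each number and direction and, for each dose comparison, the member with the smallest blocked p in each direction. ENSGACG00000020952 was singled out after its values were seen. Alternatives were other pseudocounts, filters, scalings, a gap from 2 groups, a rank by difference over spread, sample weights, no variance trend, and leaving out pools or numbers.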

Additional observations from a re-analysis of the deposited data

Results flagged for a closer look

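A value far from the others of its group was looked for by Dixon's ratio in 66 sets, namely library totals and numbers of low genes in each dose group, and the named genes in the 5 pools of a dose group outside their set-apart number. It was found in 4. For independent sets not chosen by their values about 1 in 20, or 3.3, would be found by chance. The named genes were chosen with the values looked at here, and the counts of low genes of a library overlap. That rate therefore cannot serve as a yardstick, and the 4 are given as a description. In control pool 3, 738 genes had counts no higher than 5, where the remaining control pools had 418 to 530. In high pool 3, 207 genes were at 0, where the remaining high pools had 26 to 76. ENSGACG00000001032, set apart in number 5, had 5 in high pool 2, against 20 to 24 in the other 4 high pools outside number 5. ENSGACG00000016168, set apart in number 2, had 7439 in high pool 4, against 2466 to 3550 in the other 4 high pools outside number 2.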

How the results depend on the processing

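Of the 150 members, 134 and 147 were chosen again with pseudocounts of 5 and 0.5, 126 after quantile normalization and 109 without a filter. With a minimum mean of 50 the number was 92, since 58 members lie below that level, with columns scaled to the same total 93, and with the difference over the within-number SD as the ranking 34 (the cause was not tested for the last 2). The gap from 2 dose groups kept 106, 95 and 96 without control, low and high pools. Leaving out 1 replicate number, or high pool 3 (chosen after seeing the data), kept 60 to 139. The gaps of the 16 genes named by gap stayed above 0 in all 232 recalculations. Only column scaling and quantile normalization could have turned them, as the other settings keep the order of the pools or only leave pools out. Leaving pools out cannot narrow a gap.

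The dose counts among members were 0 without the replicate block. With the replicate block 0 members were called in low against control, 7 in high against control and 13 in high against low. In high against control, blocked fits gave 7 with a pseudocount of 5, of 0.5 or no filter, 6 with a minimum mean of 50 (92 members tested) or quantile normalization, 3 with equal column totals, 12 with sample weights and 0 without the variance trend. In high against low they gave 12, 13 and 13 with a pseudocount of 5, of 0.5 or no filter, 9 with a minimum mean of 50, 12 with quantile normalization, 10 with equal totals or no variance trend and 27 with sample weights. Sample weights gave 15 in low against control, where 1067 of 16103 genes were then called in place of 0, and the other full-sample blocked fits gave 0 members and 0 genes. Without control pool 1, low pool 1, low pool 6 or high pool 1 the blocked count in high against control was 4. Over all single pools or numbers left out the counts were 0 to 3 in low against control, 0 to 8 in high against control and 6 to 14 in high against low. Over all 16103 genes they were 0 to 372, 18 to 265 and 505 to 1579 in the same order. The named dose differences of ENSGACG00000005701, ENSGACG00000010798 and ENSGACG00000016168 kept their sign in these fits. The adjusted p of ENSGACG00000010798 in high against low ran from 1.5e-05 to 0.00837 over blocked fits, that of ENSGACG00000016168 from 2.1e-05 to 0.0111, and those of ENSGACG00000005701 and ENSGACG00000010798 in high against control from 0.000392 to 0.0839 and from 0.00145 to 0.0633. In low against control they ran from 0.000789 to 0.659 for ENSGACG00000005701 and from 0.00876 to 0.764 for ENSGACG00000016168. Scaling and rounding before deposit limit what values near 0 can show.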

Other observations

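The rows of the deposited table are ordered by identifier, and some members of 1 number and direction stand close together in that order. Rows were counted among the 16103 genes kept, with the genes under the minimum mean skipped. Of the 19 members lower in number 3, 6 had another such member within 20 rows, while 4.09% of all 16103 genes had one. Of the 47 lower in number 2, 10 had one, against 10.5% of all genes, and of the 31 higher in number 2, 2 had one, against 7.51%. Of the 26 lower in number 1, 4 had one, against 6.12%. None was found among the 8 higher in number 3, the 6 higher and 2 lower in number 4, or the 11 higher in number 5, against 1.99%, 1.49%, 0.497% and 2.69% of all genes. The closest pairs, in number 2 lower and number 3 lower, were 2 rows apart. Whether identifier order follows genome position is not given in the sources used here, and reads shared between near-identical genes cannot be told apart in scaled values.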
